A study of Sus scrofa with 18 samples.

Results

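The spliceosome removes introns from precursor RNA. It is built from small nuclear ribonucleoproteins (snRNPs), each a small RNA wrapped by a ring of Sm proteins, and from protein complexes such as SF3A, SF3B and U2AF that help to find the 3′ end of an intron. SR proteins, rich in arginine and serine, mostly favour the use of an exon. The heterogeneous nuclear ribonucleoproteins (hnRNPs) coat new RNA and often oppose them, so the balance of both helps to set which exons a muscle fibre keeps.

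The genes described here carry a name that starts with HNRNP, HNRP, SRSF, SFRS, SNRP, SF3A, SF3B, U2AF or PRPF in the annotation that the authors deposited for biceps femoris. That rule used no expression value and found 131 of 23999 probe sets, for 66 genes. A probe set is a group of short probes that together report 1 transcript. The hnRNP family held 39 probe sets of 18 genes, and the SR and SR-related family 47 of 17 genes. The snRNP proteins held 19 probe sets of 13 genes, the SF3A and SF3B subunits 9 of 7, the U2AF proteins 7 of 4 and the PRPF proteins 10 of 7. The prefix SFRS also brought in genes that now have other names, such as SCAF4, SCAF11, CLASRP, SREK1, SUGP2 and TRA2B. They are called SR-related here, apart from the 8 classical SR genes. The pig symbol named 12 of the probe sets and the human homolog alone the other 119. No filter on low values was used, so every probe set was tested, including 12 that lay in the lowest 0.25 of all values on each of the 18 arrays.

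The samples come from a pig model of acute quadriplegic myopathy, the limb weakness of intensive care. The day 5 group held 5 arrays of masseter, a jaw muscle, and 4 of biceps femoris, a thigh muscle. Day 5 animals had been anaesthetised, ventilated, immobilised and given pancuronium, a neuromuscular blocker, at 0.1 mg/kg/h. They had also received betamethasone, a corticosteroid, at 0.1 mg/kg 2 times a day, and a 1 h infusion of Escherichia coli endotoxin at 36 µg/kg/h. The day 1 group, named as control, held the same numbers of arrays of each muscle. All came from 5 female domestic piglets of one farm with a mean body weight of 26.9 kg, per the protocol, and 4 of these gave the biceps femoris arrays. A breed tag names Eurasian wild boar instead. Isoflurane with added morphine and ketamine kept them sedated, and all received fluids, glucose, streptomycin and penicillin during the study. The day 1 masseter samples are labelled untreated. The day 1 biceps femoris samples are called control in their titles, but a treatment tag names the blocker, the corticosteroid and sepsis. The animals' age is not given in the sources used here. The passage of time, immobility and each agent cannot be told apart, since no animal without the treatment entered. Values are log2 RMA levels, and a change is the day 5 mean minus the day 1 mean on that scale. A call is an adjusted p under 0.05 from limma with Benjamini-Hochberg adjustment over all 23999 probe sets. The muscles had been normalised apart, so no level is compared across them.

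All arrays had similar medians, between 6.09 and 6.16. In biceps femoris the 28S ribosomal RNA control read 12.09 to 13.12 on day 5 arrays, against 11.68 to 12.07 on day 1 arrays. The BioC hybridisation spike-in read 7.43 to 7.78 on the day 5 arrays, against 7.97 on day 1 replicate 4 and 8.87 to 9.13 on the other day 1 arrays. Among the day 5 arrays, replicate 1 stood apart in the 3′ minus 5′ difference of actin, at 2.05, where the others had 1.04 to 1.15 and the day 1 arrays 1.39 to 1.72. The part of these readings in the results was not tested, apart from the fits named below. Skeletal muscle fibre markers averaged 12.22 to 12.52 on masseter day 5 arrays, against 12.63 to 12.87 at day 1. In biceps femoris they averaged 11.92 to 12.18 at day 5, against 12.45 to 12.52 at day 1. Of these 13 markers, 3 were called lower and 1 higher in masseter, with a median change of -0.13. In biceps femoris 2 were called lower and 0 higher, with a median of -0.03 and changes from -2.94 to 0.30. The 9 fibroblast markers averaged 8.67 to 9.80 on biceps femoris day 5 arrays, against 10.45 to 11.13 on day 1 arrays, and 7 of them fell. The 5 smooth muscle and pericyte markers averaged 8.94 to 9.77 on day 5 arrays there, against 9.72 to 10.60 on day 1 arrays, and 2 fell, as did 2 of 8 endothelial markers. In masseter the fibroblast markers averaged 8.77 to 10.51 at day 5, against 9.87 to 10.80 at day 1, and 1 fell. In whole muscle, fewer cells of a type and less RNA per cell cannot be told apart.

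Most splicing factors were not called in either muscle, and those that changed mostly rose. In masseter 13 of the 131 probe sets were higher at day 5 and 4 lower. This is 13.0% of the members (9.92% higher and 3.05% lower), against 13.8% of all probe sets tested (7.31% higher and 6.51% lower). In biceps femoris 22 were higher at day 5 and 4 lower. This is 19.8% of the members (16.8% higher and 3.05% lower), against 17.2% of all (9.89% higher and 7.27% lower). The shares called in either direction were close to those of all probe sets, while more of the members' calls were rises. With the brightest probe set of each gene, 16.7% of the 66 genes were higher and 1.52% lower in masseter, against 9.29% and 8.26% of 12375 named genes. In biceps femoris 28.8% were higher and 3.03% lower, against 13.0% and 9.12% of the named genes. Changes above 0 made up 73.3% of the members in masseter and 57.3% in biceps femoris, against 45.2% and 46.4% of all probe sets. The median change was 0.14 in masseter and 0.08 in biceps femoris, where all probe sets had -0.03 and -0.02. Of the 66 genes, 38 had no probe set called in either muscle, 11 had one called higher in masseter and 19 in biceps femoris. In both muscles 9 probe sets rose, of the 13 higher in masseter and the 22 higher in biceps femoris (3.66% of all probe sets did so). Those 9 belong to PRPF3, SCAF4, SF3B3, SNRPA1, HNRNPC, HNRNPAB and HNRNPU. The 2 that fell in both are of 1 gene, SNRPN (3.04% of all probe sets fell in both). In biceps femoris every day 5 array lay above every day 1 array for 26 of the 131 members, and below for 7. Over all 23999 probe sets these numbers were 2872 and 2454. In masseter they were 7 and 3 for the members, against 1340 and 1397 for all. As a share, day 5 above day 1 was about as frequent among members as among all in masseter, and more frequent in biceps femoris. Day 5 below day 1 was less frequent among members in both muscles. Lack of overlap was also a condition for naming the largest rises and falls, so it is no separate support for them.

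**Figure D1:**
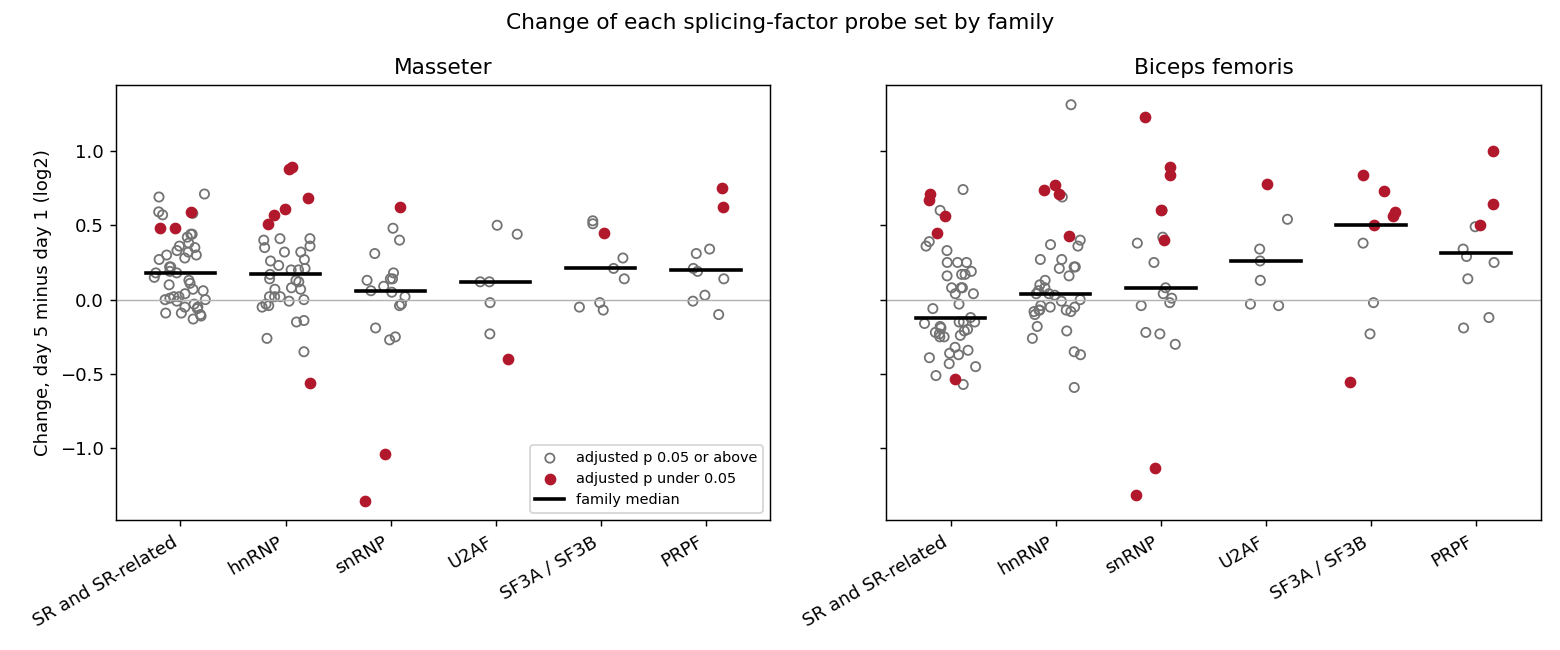
Change of each of the 131 probe sets (day 5 minus day 1, log2) by family, in masseter (left) and biceps femoris (right). Red points were called (limma adjusted p under 0.05), open points were not, and bars mark family medians. The SF3A and SF3B median is the highest in biceps femoris (0.50), and the SR median is the lowest there (-0.12).

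The count in masseter moved with single arrays, and was highest without day 5 replicate 1. Without day 5 replicate 1, 33 member probe sets were higher and 4 lower. For fits with an array left out, weights or a block, the share of all probe sets called is not given here. Such counts therefore describe the members alone. Leaving out other arrays gave 7 to 17 higher, with 7 without day 1 replicate 5 and 8 without day 1 replicate 4, day 5 replicate 4 or day 5 replicate 5. In biceps femoris leaving out 1 array gave 15 to 25 higher and 2 to 4 lower. With the arrays split at the spike-in gap as a block, 8 were higher and 3 lower. In that fit the day effect rests on 1 day 1 array, replicate 4, the only one that shares a block with day 5 arrays. The 8 were SF3A3, SF3B2, SF3B4, SF3B5, U2AF1, SNRPC, SNRPD2 and SNRPD3, and both SNRPN probe sets kept their fall. That array was the lowest at day 1 for SNRPD3 (8.30, others 9.45 to 9.57), SF3B4 (6.89, others 7.32 to 7.57) and SNRPD2 (10.75, others 11.04 to 11.11). It was also the lowest for SF3B5 (8.95, others 9.17 to 9.37) and SF3B2 (7.89, others 7.95 to 8.17). For SF3A3 (9.62, others 9.47 to 9.54) and U2AF1 (10.77, others 10.56 to 10.73) it was the highest, and for SNRPC it lay between the others. For HNRNPAB, whose call was lost, it was the highest (9.14, others 8.62 to 8.80). The adjusted p-values of the other rises ran from 0.0501 to 0.562 in that fit.

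The largest changes among the falls belonged to SNRPN. It encodes SmN, the tissue-restricted counterpart of the ring proteins SmB and SmB′, and in human and mouse it is expressed from the paternal copy only. The first of its probe sets read 6.72, 7.07, 6.81, 6.60 and 6.4 in masseter at day 5, against 8.02, 7.56, 7.92, 7.65 and 7.63 at day 1. In biceps femoris it read 6.34, 6.29, 6.43 and 6.47 at day 5, against 7.43, 7.30, 7.75 and 7.56 at day 1. Every day 5 array lay below every day 1 array in both muscles. The fall was -1.04 ± 0.14 in masseter (SE, 2.05-fold, adjusted p = 0.00134) and -1.13 ± 0.11 in biceps femoris (2.18-fold, adjusted p = 0.000458). The second probe set fell by 1.35 ± 0.20 in masseter (2.55-fold, adjusted p = 0.00251) and by 1.31 ± 0.13 in biceps femoris (2.48-fold, adjusted p = 0.000502), again with no overlap of the groups. These 4 calls held with each array left out. The remaining SNRPN probe set, annotated through the same homolog, changed by 0.02 in masseter (adjusted p = 0.959) and by -0.30 in biceps femoris (adjusted p = 0.254). The probe set of SNRPB, the gene of SmB and SmB′, had changes of 0.09 in masseter (adjusted p = 0.544) and 0.25 in biceps femoris (adjusted p = 0.113). Near-identical stretches of SNRPN and SNRPB may share probes.

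**Figure D2:**
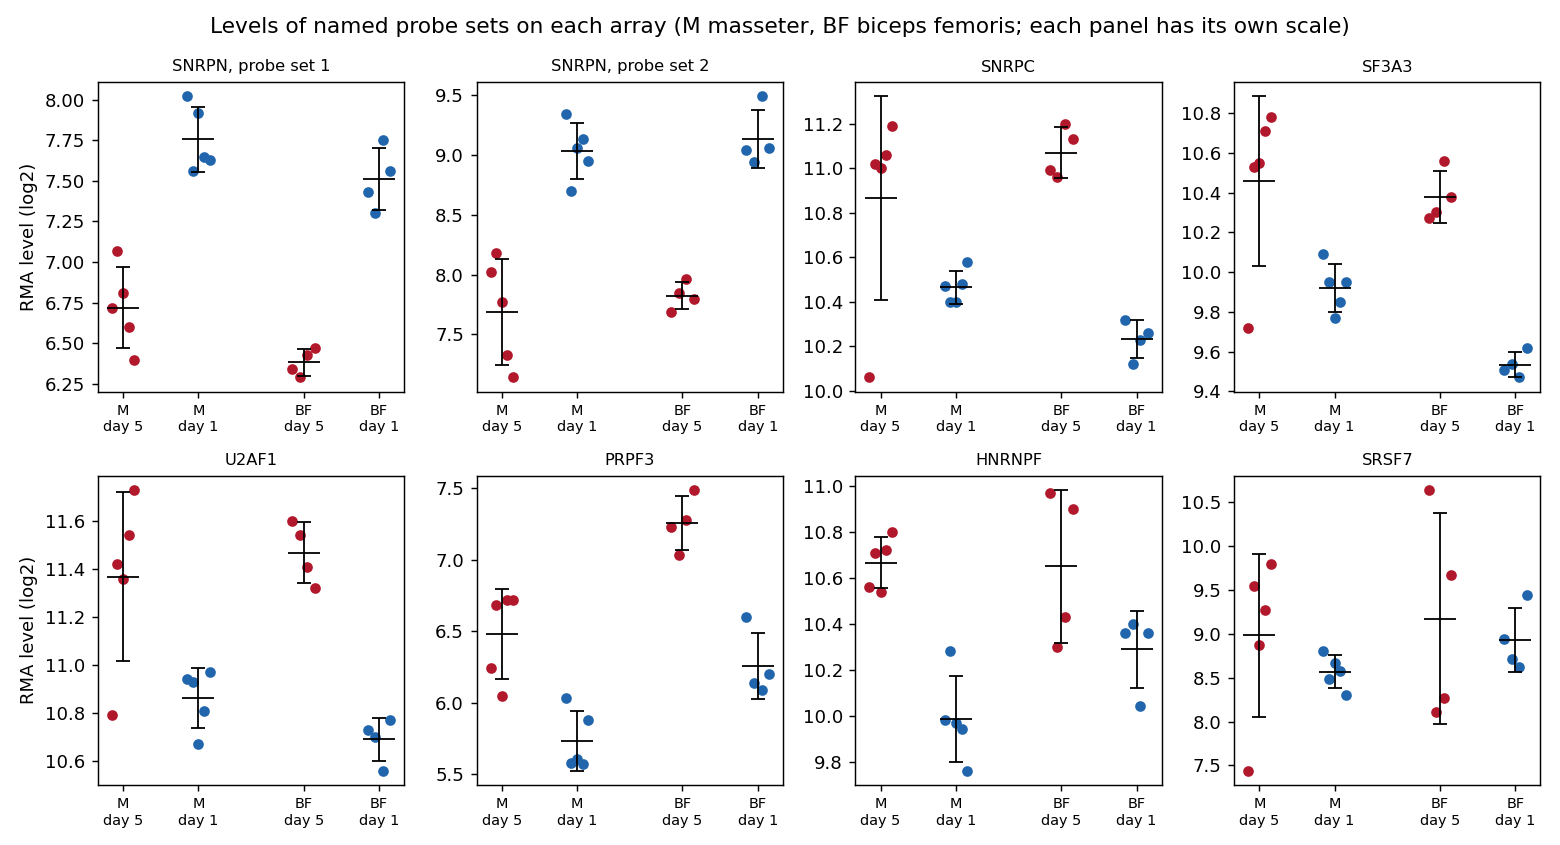
RMA levels (log2) of 8 probe sets on every array, day 5 in red and day 1 in blue, in masseter (M) and biceps femoris (BF). Long bars are group means and whiskers SD (n = 5 in masseter, 4 in biceps femoris). Both SNRPN panels show day 5 below day 1 without overlap in both muscles, and SNRPC, SF3A3 and U2AF1 show 1 low day 5 array in masseter.

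Apart from SNRPN, the snRNP proteins that were called were higher at day 5. The family had 5 probe sets higher and 2 lower in biceps femoris, where its median change was 0.08. In masseter 1 was higher and 2 lower, and the median was 0.06. These are 36.8% and 15.8% called, where 17.2% and 13.8% of all probe sets were. SNRPC encodes U1-C, which helps the U1 snRNP to recognise the 5′ splice site. It read 10.99, 10.96, 11.20 and 11.13 in biceps femoris at day 5, against 10.32, 10.12, 10.23 and 10.26 at day 1. Day 5 lay above day 1 on every array, a rise of 0.84 ± 0.09 (SE, 1.79-fold, adjusted p = 0.0006). In masseter its change was 0.40 ± 0.19 (adjusted p = 0.187). There, day 5 replicate 1 read 10.06, below all day 1 arrays (10.40 to 10.58), while the other 4 day 5 arrays read 11.00 to 11.19. A second, dimmer SNRPC probe set had changes of -0.02 in biceps femoris and -0.04 in masseter and was called in neither.

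Sm ring proteins, which encircle the small nuclear RNA, were called higher in biceps femoris for 3 of 8 genes. Of their 11 probe sets, 27.3% were higher and 18.2% lower there, against 9.89% and 7.27% of all probe sets. SNRPD3 read 10.47, 10.02, 10.54 and 10.77 at day 5, against 9.54, 9.45, 9.57 and 8.30 at day 1. Its rise was 1.23 ± 0.30 (2.35-fold, adjusted p = 0.0227), with day 1 replicate 4 well below the other day 1 arrays, and the call ended without day 5 replicate 3 or 4 (adjusted p up to 0.063). SNRPD2 rose by 0.40 ± 0.10 (adjusted p = 0.0226) and the probe set named for SNRPE by 0.60 ± 0.10 (adjusted p = 0.00494), without overlap of the groups. The SNRPD2 call ended without day 5 replicate 2 or 3 (adjusted p up to 0.0606). The probe set named for SNRPE is also annotated to NDUFB2, a subunit of respiratory complex I, so which gene it reports is uncertain. In masseter the SNRPD3, SNRPD2 and SNRPE probe sets had changes of 0.31, 0.18 and 0.14 with adjusted p-values of 0.607, 0.259 and 0.631. SNRPA1 encodes the A′ protein of the U2 snRNP, which marks the branch point. It rose by 0.89 ± 0.22 in biceps femoris (1.86-fold, adjusted p = 0.0252) and by 0.62 ± 0.15 in masseter (1.54-fold, adjusted p = 0.0225). In biceps femoris, day 5 replicate 1 read 9.50 and the other day 5 arrays 8.72 to 8.74, all above the day 1 range of 7.63 to 8.38. The call ended without day 1 replicate 1, 2 or 3 there (adjusted p up to 0.0667), and in masseter without day 1 replicate 1 or 4 or day 5 replicate 4 or 5 (adjusted p up to 0.056). A second, dimmer SNRPA1 probe set had changes of 0.38 in biceps femoris and 0.13 in masseter and was called in neither.

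SF3A and SF3B are the protein complexes that hold the U2 snRNP at the branch point. They had the highest share of calls of any family in biceps femoris, with 5 of 9 probe sets higher and 1 lower. In masseter 1 was higher. These are 66.7% and 11.1% called, where 17.2% and 13.8% of all probe sets were. Their median change was 0.50 in biceps femoris and 0.21 in masseter. SF3A3, an SF3A subunit, read 10.27, 10.30, 10.56 and 10.38 in biceps femoris at day 5, against 9.51, 9.54, 9.47 and 9.62 at day 1. The groups lay far apart relative to their spread, with a rise of 0.84 ± 0.09 (1.79-fold, adjusted p = 0.000643). SF3B2, SF3B4 and SF3B5, further subunits of SF3B, rose by 0.56 ± 0.09 (adjusted p = 0.00323), 0.73 ± 0.17 (adjusted p = 0.0198) and 0.59 ± 0.11 (adjusted p = 0.00841), each without overlap of the groups. The SF3B4 call ended without day 1 replicate 3, day 5 replicate 3 or day 5 replicate 4, at adjusted p-values up to 0.0566.

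SF3B3 was the SF3 gene that rose in both muscles. It read 8.40, 8.50, 8.38, 8.63 and 8.90 in masseter at day 5, against 8.27, 7.98, 8.16, 8.03 and 8.14 at day 1, a rise of 0.45 ± 0.11 (1.36-fold, adjusted p = 0.0239). With the animal as a block, the adjusted p in masseter was 0.0628, and without day 1 replicate 2, 4 or 5 or day 5 replicate 4 it was up to 0.06. In biceps femoris it rose by 0.50 ± 0.10 (1.41-fold, adjusted p = 0.0131). SF3B1, the subunit that contacts the branch point itself, went the other way on 1 of its 3 probe sets. That probe set fell in biceps femoris by 0.55 ± 0.16 (1.46-fold, adjusted p = 0.0482), with 10.30, 10.67, 10.00 and 10.51 at day 5, against 10.80, 11.16, 10.73 and 10.98 at day 1. Leaving out any 1 of 7 of the 8 arrays ended this call (adjusted p up to 0.125), day 5 replicate 2 being the exception. A second SF3B1 probe set was not called in biceps femoris (adjusted p = 0.332), the remaining one was in the lowest 0.25 on every array, and changes of all 3 in masseter lay between -0.07 and -0.02.

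U2AF1 encodes the small subunit of U2AF, which reads the AG at the 3′ splice site. It read 11.60, 11.54, 11.41 and 11.32 in biceps femoris at day 5, against 10.73, 10.70, 10.56 and 10.77 at day 1. This was a rise of 0.78 ± 0.09 (1.72-fold, adjusted p = 0.00102). In masseter 4 day 5 arrays read 11.36 to 11.73, above the day 1 range of 10.67 to 10.97, while day 5 replicate 1 read 10.79, and the change of 0.50 ± 0.16 was not called (adjusted p = 0.056). U2AF2, the large subunit that binds the polypyrimidine tract, had 3 probe sets with changes from -0.40 to 0.12 in masseter, and from -0.04 to 0.34 in biceps femoris. One of them fell in masseter (-0.40 ± 0.11, adjusted p = 0.0407, and 0.0894 with the animal as a block). That call ended without any 1 of 9 of the 10 arrays (adjusted p up to 0.0901), day 5 replicate 1 being the exception.

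PRPF3 belongs to the U4/U6 snRNP, which is brought to the intron with U5. Both of its probe sets rose in both muscles. The first read 6.24, 6.68, 6.05, 6.72 and 6.72 in masseter at day 5, against 6.03, 5.58, 5.61, 5.57 and 5.88 at day 1. In biceps femoris it read 7.23, 7.03, 7.28 and 7.49 at day 5, against 6.60, 6.14, 6.09 and 6.20 at day 1. Its rise was 0.75 ± 0.16 in masseter (1.68-fold, adjusted p = 0.0123) and 1.00 ± 0.14 in biceps femoris (2.0-fold, adjusted p = 0.00231), with no overlap in either muscle. The second probe set rose by 0.62 ± 0.14 in masseter (adjusted p = 0.0153, and 0.0553 with the animal as a block) and by 0.64 ± 0.14 in biceps femoris (adjusted p = 0.0142). The PRPF family had medians of 0.20 in masseter and 0.31 in biceps femoris.

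The SR family held the largest number of probe sets. Of 47, 3 were higher in masseter, and 4 were higher and 1 lower in biceps femoris. These are 6.38% and 10.6%, where 13.8% and 17.2% of all probe sets were called. In masseter 13 were higher without day 5 replicate 1, and 11 with array weights. The share of all probe sets called in those fits is not given here, so these counts describe the members alone. Among the 16 probe sets of the 8 classical SR genes, 1 was called in masseter and 0 in biceps femoris. That 1 was SRSF4, a classical SR protein. It read 9.62, 9.35, 9.13, 9.64 and 9.71 in masseter at day 5, against 9.04, 8.66, 8.94, 8.83 and 9.03 at day 1, a rise of 0.59 ± 0.13 (1.51-fold, adjusted p = 0.0134). In biceps femoris its change was 0.17 ± 0.13 (adjusted p = 0.439).

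The calls among SR-related genes came from SCAF4, CLASRP and SRSF11. SCAF4, which binds the tail of RNA polymerase II, rose on 2 of its 3 probe sets in both muscles. The brighter of these rose by 0.48 ± 0.12 in masseter (adjusted p = 0.0279) and by 0.71 ± 0.19 in biceps femoris (adjusted p = 0.0379), and the other by 0.48 ± 0.13 in masseter (adjusted p = 0.0304) and 0.56 ± 0.15 in biceps femoris (adjusted p = 0.0324). With the animal as a block the masseter values were 0.0719 and 0.0556. The brighter one lost its masseter call without day 1 replicate 3, 4 or 5 (adjusted p up to 0.0718), and its biceps femoris call without any array but replicate 2 of either day (up to 0.104). The other lost its masseter call without day 1 replicate 1, 2 or 5 or day 5 replicate 3 or 5 (up to 0.074), and its biceps femoris call without any array but day 5 replicates 1 and 2 (up to 0.0918). CLASRP, a partner of the kinase CLK4 that phosphorylates SR proteins, rose in biceps femoris on 2 of 3 probe sets, by 0.67 ± 0.14 (adjusted p = 0.0116) and 0.45 ± 0.09 (adjusted p = 0.00874). SRSF11 had 7 probe sets, and 1 of them fell in biceps femoris by 0.53 ± 0.13 (adjusted p = 0.0277). Its other probe sets were not called, and all 7 had changes between -0.53 and 0.19 there. That call ended without day 1 replicate 2, 3 or 4 or day 5 replicate 4, at adjusted p-values up to 0.0791.

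Classical SR genes spread widely among the day 5 arrays. SRSF7, an SR protein that also binds the nuclear export receptor, read 10.64, 8.11, 8.27 and 9.67 in biceps femoris at day 5, against 8.94, 8.71, 8.62 and 9.44 at day 1. Replicate 1 was above all day 1 arrays and replicates 2 and 3 were below them. The change was 0.25 ± 0.53 (adjusted p = 0.814). In masseter SRSF7 read 7.44, 9.54, 8.87, 9.27 and 9.79 at day 5, against 8.80, 8.48, 8.67, 8.58 and 8.30 at day 1. There replicate 1 was below all day 1 arrays and the other 4 above them, and the change was 0.42 ± 0.37 (adjusted p = 0.493). SRSF2, which binds exonic enhancers, read 10.99, 9.82, 9.65 and 10.65 in biceps femoris at day 5, against 10.69, 10.67, 10.64 and 10.81 at day 1 (change -0.43 ± 0.28, adjusted p = 0.368). The brighter SRSF3 probe set read 11.10, 9.50, 9.73 and 10.30 there at day 5, against 10.34, 9.73, 9.76 and 10.13 at day 1 (change 0.17 ± 0.33, adjusted p = 0.793). In both, replicate 1 was the highest of all 8 arrays, and the groups overlapped.

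The 16 classical SR probe sets were averaged on each array. Their mean deviation from the day 1 mean was 0.76, -0.32, -0.57 and 0.21 on the day 5 arrays of biceps femoris, against 0.00, -0.09, -0.12 and 0.21 on the day 1 arrays. Replicate 1 was the highest of the 4 day 5 arrays for 13 of the 16. In masseter the mean deviations were -0.26, 0.39, 0.49, 0.19 and 0.38 at day 5, against 0.07, 0.01, -0.02, -0.01 and -0.05 at day 1. There replicate 1 was the lowest of the day 5 arrays for 10 of the 16. Over all 131 probe sets, biceps femoris day 5 replicate 1 was the highest day 5 array for 48.1%, where it was so for 27.5% of all probe sets tested. That array was also the lowest day 5 array for 37.7% of all probe sets and 19.1% of the members. Masseter day 5 replicate 1 was the lowest for 48.9% of the members and for 25.2% of all, and the highest for 12.2% and 29.1%. Both arrays thus also stood out over all probe sets, in the other direction. The labels do not say whether these 2 arrays come from the same animal.

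**Figure D3:**
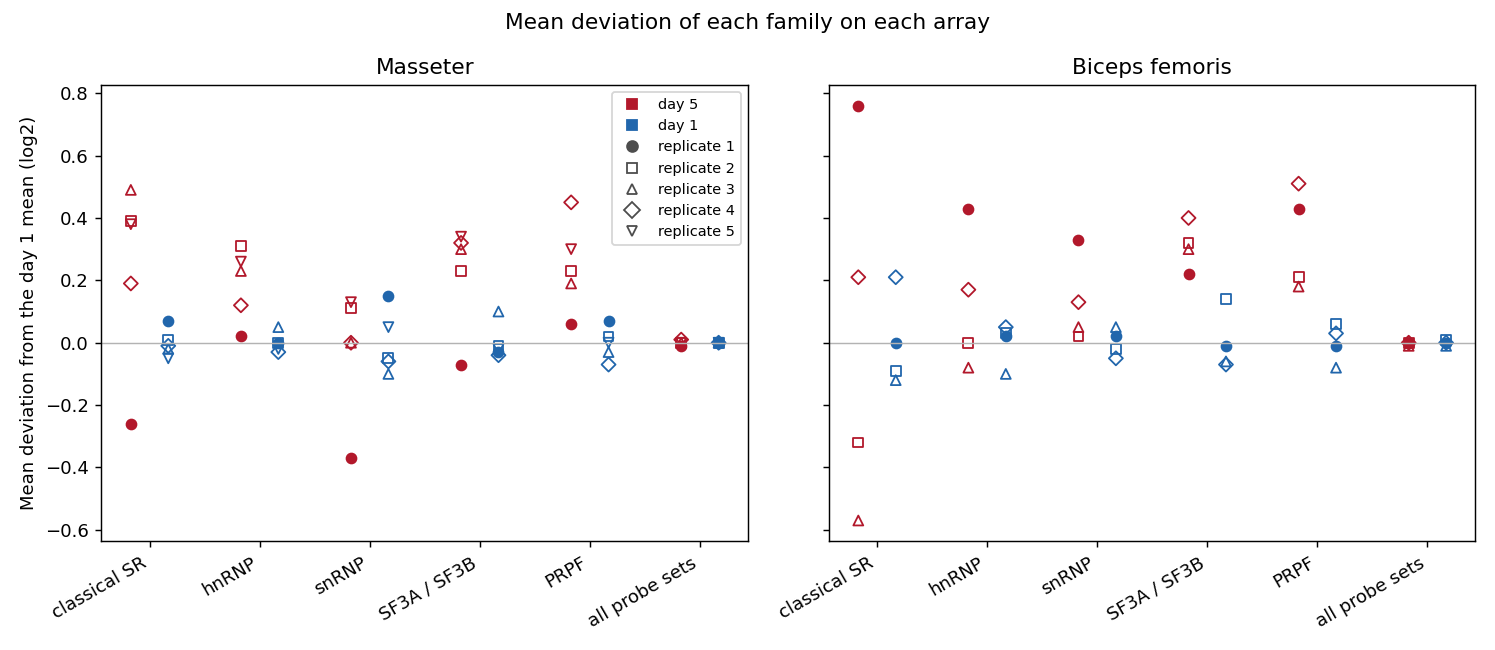
Mean deviation from the day 1 mean of the muscle (log2), averaged over the probe sets of a family, for each array, with day 5 in red left of day 1 in blue. Filled circles are replicate 1. The classical SR points of biceps femoris day 5 run from -0.57 to 0.76, while the SF3A and SF3B points run from 0.22 to 0.40.

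A like spread among day 5 arrays was seen in other families. In biceps femoris the 6 hnRNP F/H probe sets averaged 0.77, -0.30, -0.28 and 0.34 at day 5, against 0.03, -0.02, -0.12 and 0.11 at day 1. The 9 hnRNP A/B probe sets averaged 0.50, -0.15, -0.40 and 0.21 at day 5, against -0.04, 0.04, -0.12 and 0.12 at day 1. In masseter the snRNP mean was -0.37 on day 5 replicate 1 and 0.00 to 0.13 on the other day 5 arrays, against -0.10 to 0.15 on day 1 arrays. For SF3A and SF3B, the mean deviations on biceps femoris day 5 arrays were 0.22, 0.32, 0.30 and 0.40, against -0.01, 0.14, -0.06 and -0.07 on day 1 arrays, with no overlap. For hnRNPs they were 0.43, 0.00, -0.08 and 0.17 at day 5, against 0.02, 0.03, -0.10 and 0.05 at day 1. In masseter, SF3A and SF3B had -0.07, 0.23, 0.30, 0.32 and 0.34 at day 5, against -0.03, -0.01, 0.10, -0.04 and -0.02 at day 1. Without day 5 replicate 1, calls in masseter numbered 13 for SR and SR-related proteins, 10 higher and 1 lower for hnRNPs, and 4 for SF3A and SF3B. Without biceps femoris day 5 replicate 1, SR and SR-related proteins had 3 higher and 1 lower there, hnRNPs 4 higher, and SF3A and SF3B 5 higher.

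Of the 39 hnRNP probe sets, 6 were higher and 1 lower in masseter, and 4 were higher in biceps femoris. These are 17.9% and 10.3%, where 13.8% and 17.2% of all probe sets were called. The medians were 0.17 and 0.04. HNRNPF belongs to the F/H group, which binds runs of G. It read 10.56, 10.71, 10.54, 10.72 and 10.80 in masseter at day 5, against 9.98, 10.28, 9.97, 9.94 and 9.76 at day 1. The groups did not overlap, and the rise was 0.68 ± 0.10 (1.6-fold, adjusted p = 0.00267). In biceps femoris it read 10.97, 10.30, 10.43 and 10.90 at day 5, against 10.36, 10.40, 10.04 and 10.36 at day 1, a change of 0.36 ± 0.17 (adjusted p = 0.204).

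HNRNPH2 and HNRNPH3, of the same group, also rose in masseter. HNRNPH2 rose by 0.51 ± 0.12 (1.43-fold, adjusted p = 0.0167) without overlap of the groups, while its other probe set had a change of 0.41 and was not called. HNRNPH3 rose by 0.89 ± 0.24 (1.85-fold, adjusted p = 0.0322, and 0.0727 with the animal as a block), where day 5 replicate 1, at 8.47, lay within the day 1 range of 8.05 to 8.59. That call ended without any array but day 1 replicate 3 and day 5 replicates 1 and 3 (adjusted p up to 0.0806). In biceps femoris no probe set of the group was called, and replicate 1 was the highest day 5 array for all 6. HNRNPF and the HNRNPH genes have similar sequences that probes may share.

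HNRNPC, on 1 of its 2 probe sets, HNRNPAB and HNRNPU rose in both muscles. HNRNPC, which binds runs of U, read 9.29, 10.30, 10.43, 10.16 and 10.57 in masseter at day 5, against 9.27, 9.08, 9.45, 9.24 and 9.34 at day 1. In biceps femoris it read 10.58, 9.71, 9.74 and 10.11 at day 5, against 9.51, 9.42, 9.31 and 9.05 at day 1. Its rise was 0.88 ± 0.21 in masseter (1.84-fold, adjusted p = 0.0205) and 0.71 ± 0.20 in biceps femoris (1.64-fold, adjusted p = 0.0439). The dimmer HNRNPC probe set had changes of 0.02 in masseter and 0.37 in biceps femoris and was called in neither. HNRNPAB, which binds single-stranded nucleic acids, rose by 0.57 ± 0.14 in masseter (adjusted p = 0.0219, and 0.0758 with the animal as a block) and 0.74 ± 0.20 in biceps femoris (adjusted p = 0.0369). HNRNPU, a nuclear scaffold protein, rose by 0.61 ± 0.17 in masseter (adjusted p = 0.037, and 0.0567 with the animal as a block) and 0.77 ± 0.19 in biceps femoris (adjusted p = 0.0277). In masseter, leaving out any 1 of 9 of the 10 arrays ended the HNRNPU call (adjusted p up to 0.0869), with day 5 replicate 1 as the exception. The HNRNPAB call ended there without day 1 replicate 5 or day 5 replicate 4 or 5 (up to 0.059). In biceps femoris the calls of HNRNPC and HNRNPU ended without any 1 day 1 array or day 5 replicate 4 (up to 0.102 and 0.0672). That of HNRNPAB ended without day 1 replicate 1, 2 or 3 or day 5 replicate 3 or 4 (up to 0.101).

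HNRNPK, which binds runs of C, had 1 of 3 probe sets called. It fell in masseter and read 9.72, 9.62, 9.84, 9.32 and 9.36 at day 5, against 10.38, 10.06, 10.13, 10.00 and 10.07 at day 1. This fall was -0.56 ± 0.12 (1.47-fold, adjusted p = 0.0133), while a brighter one had a change of 0.20 (adjusted p = 0.218). The remaining one, at 3.01 to 3.45 on all arrays, was too dim to be read against them. HNRNPDL rose on 1 of 4 probe sets in biceps femoris, by 0.43 ± 0.08 (adjusted p = 0.00868). HNRNPL, known for the control of CD45 exons in T cells, had the largest change of any hnRNP in biceps femoris but was not called. It read 8.67, 9.41, 8.73 and 8.92 at day 5, against 8.38, 8.48, 6.94 and 6.68 at day 1, a change of 1.31 ± 0.43 (adjusted p = 0.0718). Its day 1 arrays fell into a high and a low pair, both below the day 5 arrays.

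Several further genes with 3 or more probe sets were not called on any of them. HNRNPA3 had changes between -0.26 and 0.21 in masseter over its 4 probe sets and HNRNPR between -0.03 and 0.27 over 4. HNRNPA2B1, a major hnRNP of the A/B group, ran from -0.35 to 0.41 in masseter, and from -0.35 to 0.03 in biceps femoris. SRSF6 spanned 0.00 to 0.69 in masseter and -0.22 to 0.39 in biceps femoris over 4 probe sets, and TRA2B -0.10 to 0.18 and -0.24 to 0.33 over 5. SREK1 spanned 0.04 to 0.71 in masseter and -0.57 to 0.04 in biceps femoris. SRSF1, SCAF11, SUGP2 and HNRNPUL1 were likewise uncalled in both muscles. The probe sets of a gene can report different transcript ends, and no call here is of an isoform.

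The difference between the muscles was tested as the masseter change minus the biceps femoris change. No member passed at an adjusted p under 0.05 by limma, where 0.2% of all probe sets did. At an unadjusted p under 0.05 there were 13 of 131, where 12.3% of all probe sets passed. The smallest p among the members belonged to a U2AF2 probe set, which read 4.02, 3.90, 4.10, 3.86 and 4.20 in masseter at day 5, against 4.37, 4.20, 3.87, 4.48 and 4.32 at day 1. In biceps femoris it read 4.40, 4.0, 4.53 and 4.25 at day 5, against 4.0, 3.94, 4.09 and 4.14 at day 1. These levels lie near or below those that mark the lowest 0.25 of each array, 4.35 to 4.48 in masseter and 4.31 to 4.43 in biceps femoris, so the probe set is not clearly above background. The changes were -0.23 in masseter and 0.26 in biceps femoris, and the difference -0.49 (95% interval -0.86 to -0.12, adjusted p = 0.254). An SRSF11 probe set had a difference of 0.41 (0.09 to 0.74, adjusted p = 0.278). SF3B4 had -0.52 (-0.93 to -0.10, adjusted p = 0.281) and the SF3B1 probe set that fell had 0.50 (0.07 to 0.94, adjusted p = 0.317). The arrays of both muscles share animals, which the fit could not take into account.

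Calls in 1 muscle alone are therefore not shown to differ between the muscles. For SF3A3, called in biceps femoris alone, the difference was -0.31 (-0.79 to 0.17, adjusted p = 0.628). For HNRNPF, called in masseter alone, it was 0.32 (-0.09 to 0.73, adjusted p = 0.538). For SNRPN the 2 probe sets that fell had differences of 0.09 (-0.30 to 0.48) and -0.04 (-0.60 to 0.53). By family, the median difference was 0.27 for SR and SR-related proteins and -0.21 for U2AF proteins, against -0.02 for all probe sets.

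**Figure D4:**
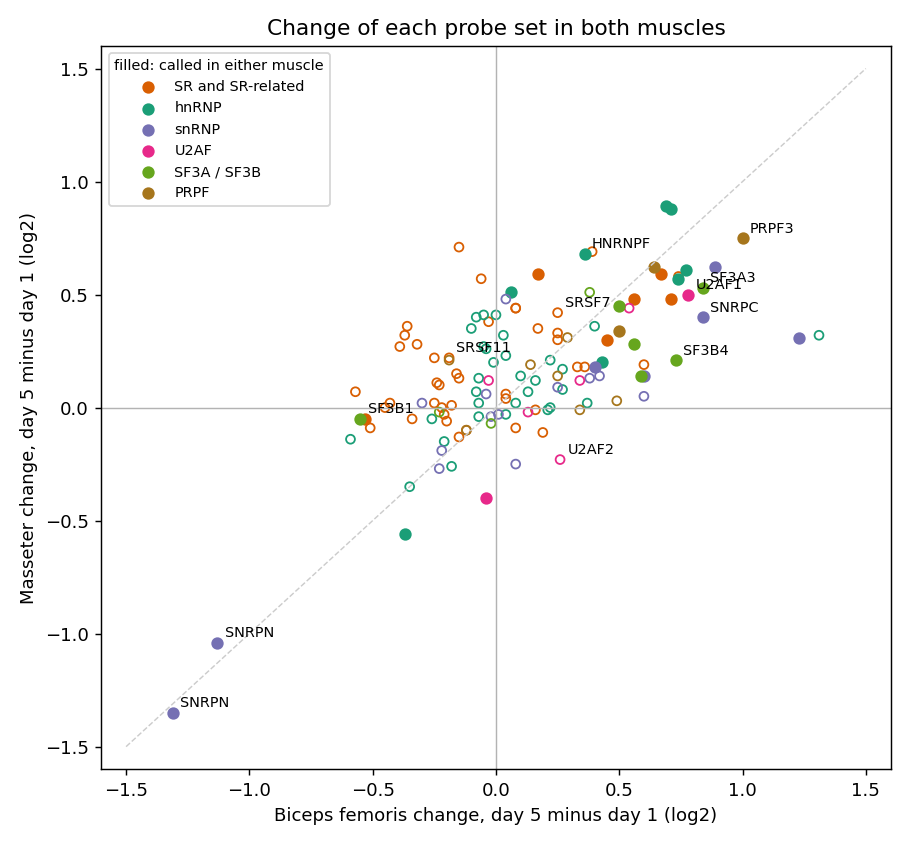
Masseter change against biceps femoris change (day 5 minus day 1, log2) of the 131 probe sets, coloured by family and filled where called in either muscle. The dashed line marks equal changes. Both SNRPN points that fell lie near it at the lower left, and many SR points lie above it.

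Other genes of the pathway were counted in lists, with the brightest probe set of each gene and members left out. Counted that way, 9.29% of named genes were higher and 8.26% lower in masseter, and 13.0% higher and 9.12% lower in biceps femoris. Of 39 other spliceosome genes, 14 were higher in biceps femoris and 0 lower, against 5 higher and 1 lower in masseter, with medians of 0.31 and 0.24. These are 35.9% called in biceps femoris and 15.4% in masseter, where 22.1% and 17.6% of named genes were. PHF5A, a small subunit of SF3B, rose by 1.20 in biceps femoris (adjusted p = 0.000257) and SART1, of the tri-snRNP, by 1.44 (adjusted p = 0.000296). SART1 also rose in masseter, by 0.55 (adjusted p = 0.024). BCAS2, of the complex that activates the spliceosome, rose in biceps femoris by 0.86 (adjusted p = 0.00181). In masseter DHX15, a helicase of spliceosome release, and RBM22 rose by 0.53 (adjusted p = 0.016) and 0.39 (adjusted p = 0.0164).

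The next list joins genes that assemble the Sm ring and the LSM genes, which form related rings. Of 18 Sm assembly and LSM genes, 9 were higher in biceps femoris and 0 lower, against 1 higher in masseter, with medians of 0.44 and 0.12, and no gene was called for the difference between muscles. PRMT5, which methylates Sm proteins before assembly, rose by 0.94 (adjusted p = 0.000471). LSM10, of the U7 snRNP, rose by 0.91 (adjusted p = 0.000644) and GEMIN5, which binds small nuclear RNA for the SMN complex, by 1.15 (adjusted p = 0.00437). LSM6 was the gene that rose in masseter, by 0.73 (adjusted p = 0.0269).

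Of 15 SR protein kinases and related genes, 3 were higher in biceps femoris and 1 in masseter. The shares called in this list were below those of named genes in both muscles (22.1% in biceps femoris and 17.6% in masseter). The genes named next are therefore single calls and do not mark the list as a whole. PPP1CA, a phosphatase subunit that acts on SR proteins, rose by 1.23 in biceps femoris (adjusted p = 0.000563), and the SR kinases CLK3 and SRPK1 by 0.51 (adjusted p = 0.0318) and 0.38 (adjusted p = 0.0477). DYRK1A, a kinase of SR proteins, rose by 0.54 in masseter (adjusted p = 0.013). Among 9 genes of the exon junction complex and nonsense-mediated decay, 3 were higher in biceps femoris and 2 in masseter. This list also holds export factors. The shares called were 33.3% and 22.2%, against the same 22.1% and 17.6% of named genes. NXT1, a partner of the export receptor, rose by 0.81 in masseter (adjusted p = 0.0085) and by 1.24 in biceps femoris (adjusted p = 0.000912). EIF4A3, the anchor of the exon junction complex, rose by 0.68 in biceps femoris (adjusted p = 0.00288).

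Muscle splicing regulators were called at shares close to those of named genes. Of 12, 2 were higher in masseter, and 1 was higher and 2 lower in biceps femoris. These are 16.7% and 25.0% called, where 17.6% and 22.1% of named genes were. CELF1, listed under its older name CUGBP1, rose by 0.81 in masseter (adjusted p = 0.00186) and by 0.62 in biceps femoris (adjusted p = 0.00588). MBNL1, which opposes CELF1 at many muscle exons, fell by 0.87 in biceps femoris (adjusted p = 0.012) and had a change of -0.48 in masseter (adjusted p = 0.0592). RBFOX2, listed as RBM9, fell by 0.81 in biceps femoris (adjusted p = 0.0454), and PTBP2 rose by 0.96 in masseter (adjusted p = 0.0013). MBNL1 has 6 probe sets, of which the brightest is given.

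Of 29 other nuclear RNA-binding genes, 7 were higher and 1 lower in masseter, and 7 higher and 2 lower in biceps femoris. These are 27.6% and 31.0% called, where 17.6% and 22.1% of named genes were. DAZAP1 and TIAL1, regulators of exon choice, rose in biceps femoris by 0.88 (adjusted p = 0.000643) and 1.08 (adjusted p = 0.000695). In masseter RBM39, a partner of U2AF2, rose by 0.98 (adjusted p = 0.00523) and SYNCRIP, also known as hnRNP Q, by 0.60 (adjusted p = 0.0106). The authors deposited a table of 89 genes that rose over 2-fold in biceps femoris. Matched by human probe identifier, it holds 0 of the 131 member probe sets. Names of the 66 genes were not compared with it. SNRPD3 is one of the 66 and was called here at 2.35-fold, so lack of a match does not mark a smaller rise. Of the other lists, that deposited table holds KHDRBS3 and GEMIN5 at 2.32-fold, CTNNBL1 at 2.16-fold and TIAL1 at 2.12-fold.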

How the data were processed

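RNA of pig masseter and biceps femoris was measured on Affymetrix porcine arrays, each with a single sample. Per the labels' protocols, 3 µg of RNA extracted with Trizol and RNeasy columns was labelled with biotin. Per the submitters' processing notes, the authors processed the arrays with RMA, and the deposited values are log2 levels. The table that the authors deposited for biceps femoris gives the same log2 values, a log2 fold change, adjusted p-values and a log odds score, and a short deposited list gives linear fold ratios, per the file headers. The biceps femoris table was read for the annotation, and its values were also fitted. All per-array columns were used.

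Sorted values differed by at most 0.23 between masseter arrays and 0.237 between biceps femoris arrays, but by at least 0.541 between muscles, so the muscles had been normalised apart. Linear models with moderated errors (limma 3.58.1 under R 4.3.3) were run for each muscle alone, as two-sided tests by lmFit with eBayes. The difference of the changes came from a fit of all 18 arrays with 4 groups. Benjamini-Hochberg adjustment ran over 23999 probe sets, leaving out 124 controls, and the fits were tested on simulated data. The number of arrays limits the precision.

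Groups follow the titles. Per the descriptions, masseter arrays of 1 number come from 1 animal, and their deviations from the group means correlated between -0.0297 and 0.122. The animal as a block is therefore given where it ended a call. Members called only in that fit are not named. Biceps femoris numbers name no animal. Where nothing links arrays to animals, p-values measure the spread between arrays.

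The members, gene lists and marker lists were chosen with earlier results of these data known. Named probe sets are, per muscle, the 6 largest rises and 6 largest falls among called members without overlap of the groups, the smallest p per family, the 4 smallest p for the difference, and genes with 3 or more probe sets. Per further list and muscle, up to 3 genes of smallest p were eligible, and those called are given. The remaining called members, HNRNPL, SRSF2, SRSF3 and SRSF7 were added after their values were seen, and 1 gene is not reported here. Gene names come from the pig symbol or the human homolog in the deposited table. Alternatives were a replicate block, a further quantile normalisation, a fit of all arrays, limma's trend and robust options, array weights and a filter on dim probe sets. Further ones were each array left out, a spike-in block and 1 probe set a gene. The deposited biceps femoris table was also fitted, but it holds the same values, so its agreement is no check. Promoter, protein and probe sequences were not used here.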

Additional observations from a re-analysis of the deposited data

Results flagged for a closer look

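In 24 of 196 groups of 4 or 5 arrays, 1 value stood far from the others, by the ratio of its gap to the whole range. Chance gives about 1 in 20, but these probe sets were chosen in part for their calls or spread, so the share is not set against it. The groups tested were those of the family means and of 43 probe sets. These were all called members, those of HNRNPL, SRSF1, SRSF2, SRSF3 and SRSF7, and the uncalled U2AF2 and SRSF11 ones named for the difference between muscles.

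In masseter, day 5 replicate 1 was the low value of SF3A3 at 9.72 (other day 5 arrays 10.53 to 10.78), CLASRP at 6.29 (7.04 to 7.21), HNRNPU at 9.80 (10.51 to 10.80) and SNRPC at 10.06 (11.00 to 11.19). It was also the low value of both SRSF3 probe sets, at 9.72 (10.53 to 10.84) and 5.37 (5.86 to 6.01). Its family means were low for SR and SR-related proteins at -0.07 (0.26 to 0.30), SF3A and SF3B at -0.07 (0.23 to 0.34) and snRNP proteins at -0.37 (0.00 to 0.13), as mean deviations from day 1. The 28S ribosomal RNA and BioC readings of that array lay at 10.31 and 9.92, where the other day 5 arrays had 9.40 to 10.15 and 9.69 to 10.10. Its GAPDH 3′ minus 5′ difference was 0.30, against 0.13 to 0.22 on the other day 5 arrays and 0.27 to 0.44 on day 1 arrays. The part of these readings in the low values was not tested.

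In biceps femoris, day 5 replicate 1 was the high value of SNRPA1 at 9.50 (8.72 to 8.74), SNRPE at 11.40 (11.06 to 11.11) and the dimmer SRSF3 probe set at 6.73 (4.37 to 4.77). Day 5 replicate 4 was high for SRSF4 at 9.60 (9.14 to 9.15), and day 5 replicate 3 was low for SRSF11 at 7.07 (7.50 to 7.57).

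Among the day 1 arrays of biceps femoris, replicate 4 was low for SNRPD3 at 8.30 (9.45 to 9.57) and high for SRSF1 at 9.55 (8.94 to 9.0). Replicate 3 was low for HNRNPF at 10.04 (10.36 to 10.40) and high for SNRPE at 10.68 (10.49 to 10.53). Among those of masseter, replicate 3 was high for HNRNPL at 8.66 (7.65 to 7.94), for the dimmer SRSF3 probe set at 5.86 (5.54 to 5.63) and for the SF3A and SF3B mean at 0.10 (-0.04 to -0.01), and low for the U2AF mean at -0.14 (0.01 to 0.06). Replicate 2 was low for SRSF1 at 9.74 (9.97 to 10.05) and replicate 5 high for SNRPA1 at 8.71 (8.19 to 8.31).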

How the results depend on the processing

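Among the 43 probe sets put through every alternative, no called one changed its direction. For members called in masseter (17: 13 higher, 4 lower), array weights gave 34 (30 higher), and 1 probe set a gene gave 1 lower. Leaving out 1 array gave 10 to 37 in all, 7 to 33 higher and 3 to 4 lower. With the animal as a replicate block, 9 were higher and 3 lower. For biceps femoris (26: 22 higher, 4 lower), the spike-in block gave 11 (8 higher), and 1 probe set a gene gave 2 lower. Leaving out 1 array gave 17 to 29 in all, 15 to 25 higher and 2 to 4 lower. A replicate block by number, which the labels tie to no animal, gave 15 higher. Same-numbered arrays there correlated between -0.21 and 0.112. The difference had 0 calls in every setting, the replicate block included.

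With 1 probe set a gene the medians were 0.28 for U2AF and 0.29 for hnRNPs in masseter, and 0.25 for all members, 0.44 for U2AF and 0.40 for snRNP proteins in biceps femoris. Without the 0.25 of probe sets with the lowest means the U2AF median in biceps femoris was 0.34. With 1 array left out the member medians ran from 0.13 to 0.24 in masseter and from -0.01 to 0.13 in biceps femoris. By family in masseter they ran from 0.13 to 0.27 (PRPF), 0.18 to 0.36 (SF3A and SF3B), 0.15 to 0.25 (SR), 0.04 to 0.18 (U2AF), 0.13 to 0.23 (hnRNP) and 0.02 to 0.17 (snRNP). In biceps femoris they ran from 0.30 to 0.40 (PRPF), 0.43 to 0.54 (SF3A and SF3B), -0.20 to 0.02 (SR), 0.18 to 0.36 (U2AF), -0.06 to 0.11 (hnRNP) and 0.07 to 0.15 (snRNP). The cause of these shifts was not tested. With each array left out, 6 of the 13 rises and 3 of the 4 falls of masseter stayed called, and 13 of the 22 rises and 2 of the 4 falls of biceps femoris. Under every alternative, 4 of 13 rises and 3 of 4 falls of masseter stayed called, and 4 of 22 and 2 of 4 of biceps femoris. The calls of SF3B5 and HNRNPDL in biceps femoris and of HNRNPH2 in masseter ended in the fit of all 18 arrays.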
